A study of Mus musculus with 6 samples.

Results

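The genes described here build, organise and cut the extracellular matrix. They were chosen by name in the deposited table: every collagen chain named as Col, a number, a and a number, every gene named Mmp, Timp or Adamts with a number, every laminin chain named Lama, Lamb or Lamc with a number, and Dcn, Bgn, Lum, Fn1 and Sparc. This gave 106 of 55573 genes, namely 44 collagen chains, 11 laminin chains, 23 Mmp genes, 19 Adamts genes, 4 Timp genes and the 5 genes named singly. RNA was sequenced from the liver of mice of generation 3 in a single comparison. The p21TKO group (p21-/- mTR-/- Wrn-/-) had 3 libraries and the DKO group (mTR-/- Wrn-/-) had 3. Loss of mTR, the telomerase RNA, and of Wrn, a RecQ helicase, was therefore common to both groups, and loss of p21 (the gene Cdkn1a) set them apart. The series states that p21TKO mice of this generation already had signs of premature ageing, and that the comparison was made to find pathways altered by p21 loss. All mice received normal feed. The titles of all 6 libraries carry the code 2M, which the labels do not explain, and no field of the labels gives age or sex. Nothing says whether each library is from a separate mouse, and p-values measure only the spread between these libraries.

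The matrix is a mesh of secreted proteins around and between cells. Fibril-forming collagens give it tensile strength, while type IV collagen and laminins assemble into the sheets of basement membrane. Matrix metalloproteinases (Mmp) and the related Adamts proteases cut these proteins, and the tissue inhibitors of metalloproteinases (Timp) block the proteases. In liver the sinusoids are lined with little organised basement membrane, hepatic stellate cells are the main source of collagen in scarring, and hepatocytes secrete plasma fibronectin.

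The FPKM denominators recovered from the table ranged from 19363284 to 27061290 reads, and 18271 to 19535 genes were above 0 per library. Hepatocyte markers were abundant in every library, and albumin (Alb) lay between 24412 and 37503 FPKM. On the first principal component, which held 57.2% of the variance, p21TKO replicates 2 and 3 stood apart from the other 4 libraries. Transcripts of Y-linked genes were present in p21TKO replicate 1 and in DKO replicates 2 and 3, and were at 0 in the other 3 libraries. Cdkn1a, the gene deleted in p21TKO mice, was at 1.41, 11.0 and 6.50 FPKM in p21TKO replicates 1 to 3, against 0.761, 1.79 and 0.405 FPKM in DKO replicates 1 to 3. Its level was thus not lower in the libraries labelled p21TKO, and a gene total cannot show which part of a gene is deleted, so the genotype was not checked by this value. Directions below hold for the libraries labelled p21TKO against those labelled DKO.

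Most matrix genes were at low levels in these livers. Of the 106, 14 were at 0 in every library, 92 were above 0 in at least 1 library and 67 in all 6. A mean below 0.1 FPKM was found for 51 genes and a mean between 0.1 and 1 FPKM for 30. The remaining 25 had a mean of at least 1 FPKM and were tested, and 8 of these had a mean of at least 5 FPKM. Fibronectin (Fn1) and Col18a1 together made up 63.5%, 67.6% and 69.5% of the summed FPKM of all 106 genes in p21TKO replicates 1 to 3, against 73.7%, 71.4% and 75.7% in DKO replicates 1 to 3.

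Differences were tested with limma on log2(FPKM + 1), so a difference of 1 is a doubling of FPKM + 1 and the change of a low gene is understated. None of the 25 tested matrix genes passed an adjusted p of 0.05, where 7 of the 9538 tested genes passed (0.0734%), 0.0315% being higher and 0.0419% lower. Adjusted p-values of the 25 ran from 0.515 for Timp2 to 0.950 for Fn1 (limma, Benjamini-Hochberg over all tested genes). At an unadjusted p under 0.05, 5 of the 25 were higher in p21TKO livers (Timp2, Col4a2, Adamts1, Dcn and Col4a1) and 0 were lower, where 4.09% of all tested genes were higher and 5.29% lower. With limma voom on the recovered reads, 0 of the 25 passed the adjusted threshold as well. The value was higher in p21TKO livers for 15 of the 25 and lower for 10, where 50.2% of all tested genes were higher and 49.8% lower. The median difference over the 25 was 0.23, and over all tested genes it was 0.0016. These counts are descriptions only, because 5 of the 25 (Col4a2, Col13a1, Mmp7, Mmp8 and Mmp9) had a DKO mean under 1 FPKM and 3 (Col3a1, Col5a3 and Col15a1) had a p21TKO mean under 1 FPKM. Such genes reached the test through the group in which they were high.

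**Figure D1:**
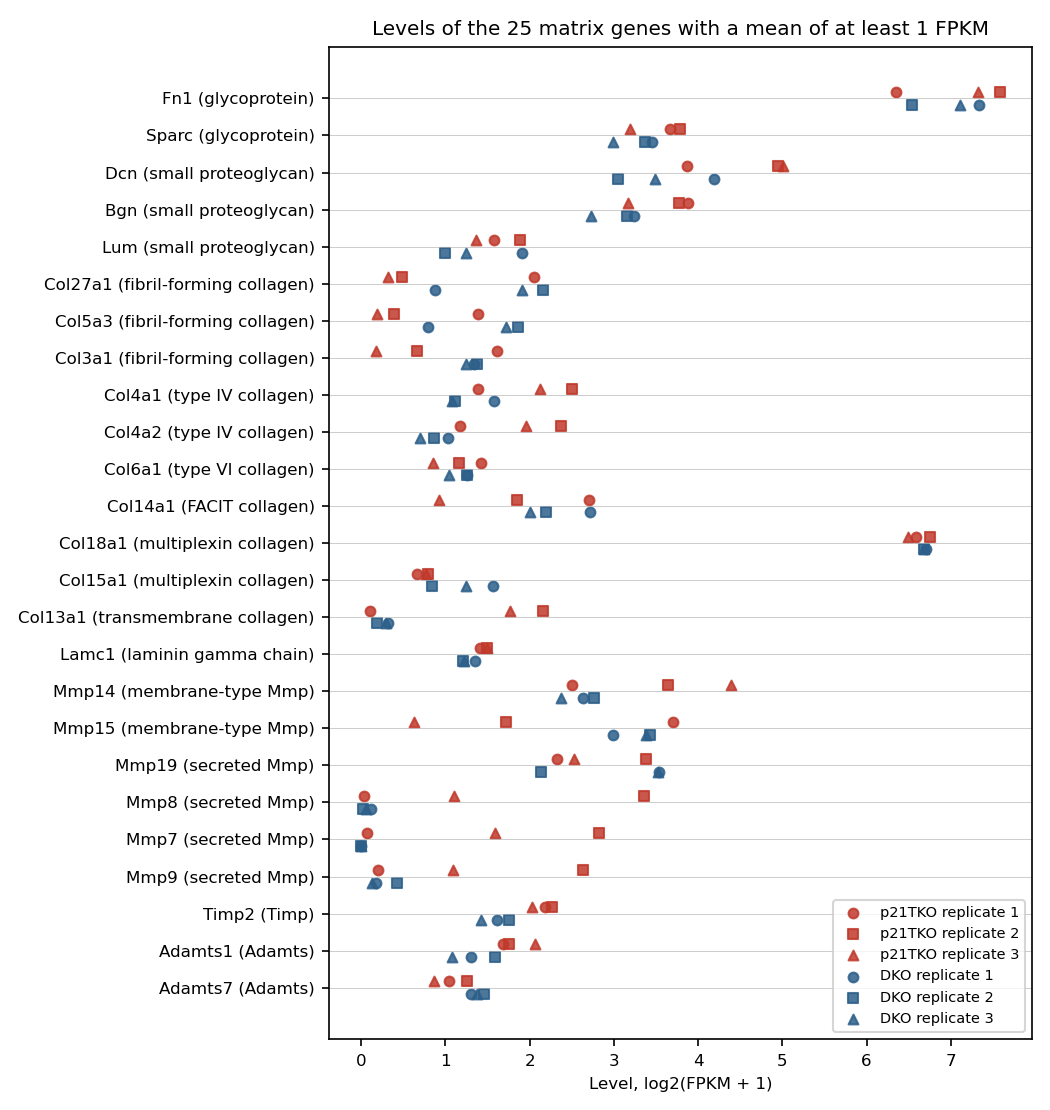
Level of each of the 25 tested matrix genes in each library, on the scale log2(FPKM + 1), grouped by role; each point is 1 library, red for p21TKO and blue for DKO. Fn1 and Col18a1 lie far above the rest, and the red squares and triangles (p21TKO replicates 2 and 3) lie away from the red circle (replicate 1) for Mmp14, Mmp15, Col13a1, Mmp7, Mmp8 and Mmp9.

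**Figure D2:**
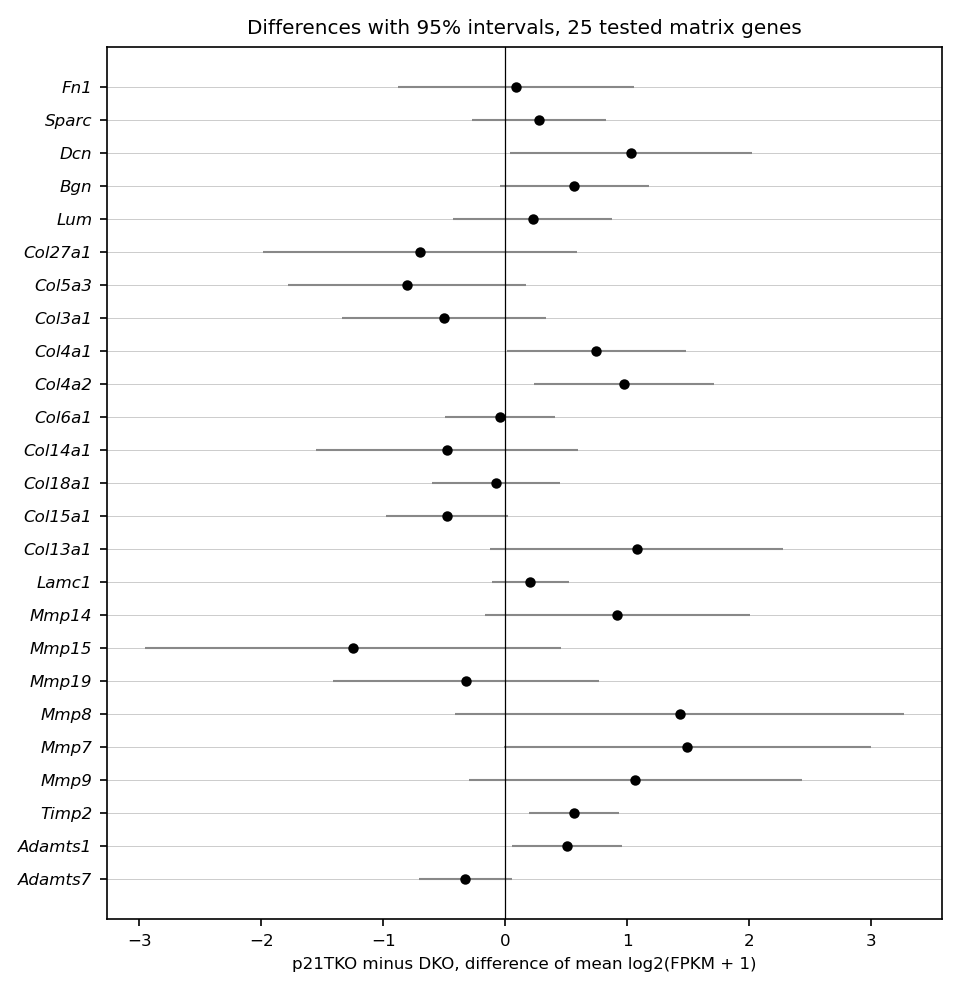
Difference of mean log2(FPKM + 1), p21TKO minus DKO, for the 25 tested matrix genes, with the 95% interval from limma as a line. Intervals for Timp2, Col4a2, Adamts1, Dcn and Col4a1 lie above 0, and the remaining 20 include 0; the intervals are not adjusted for the number of genes.

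Fn1, a glycoprotein that links integrins to collagen and that hepatocytes release into plasma, had the highest mean of the 106 genes. It was at 80.2, 191 and 158 FPKM in p21TKO replicates 1 to 3, against 160, 92.2 and 136 FPKM in DKO replicates 1 to 3. The groups overlapped, and the difference was 0.09 ± 0.41 (SE), with a 95% interval from -0.88 to 1.06. Sparc, a collagen-binding glycoprotein, was at 11.7, 12.7 and 8.13 FPKM in p21TKO livers, against 9.92, 9.32 and 6.91 FPKM in DKO livers. Its groups overlapped through p21TKO replicate 3.

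Decorin (Dcn), biglycan (Bgn) and lumican (Lum) are small leucine-rich proteoglycans that bind collagen fibrils. Dcn was at 13.6, 30.0 and 31.1 FPKM in p21TKO replicates 1 to 3, against 17.2, 7.28 and 10.2 FPKM in DKO replicates 1 to 3. Replicates 2 and 3 of p21TKO lay above every DKO library, and replicate 1 lay below DKO replicate 1. Bgn was at 13.7, 12.7 and 7.97 FPKM in p21TKO livers, against 8.41, 7.92 and 5.61 FPKM in DKO livers, a difference of 0.57 ± 0.26 (SE; limma adjusted p 0.531). For Bgn it was p21TKO replicate 3 that fell among the DKO values. Lum, at 1.98, 2.69 and 1.57 FPKM in p21TKO livers and 2.77, 0.987 and 1.36 FPKM in DKO livers, overlapped throughout. Dcn and Bgn were thus both above every DKO library in p21TKO replicate 2, and differed in replicates 1 and 3. The summed markers of hepatic stellate cells, 12 genes all detected, were at 88.9, 80.7 and 63.6 FPKM in p21TKO livers, against 65.6, 47.5 and 42.6 FPKM in DKO livers, and 7 of the 9 tested were higher in p21TKO livers. Ecm1 was the highest of the 12 in every library, with means of 37.7 FPKM in p21TKO and 20.2 FPKM in DKO livers. The sum thus leans heavily on a single gene. The part of these markers in the result was not tested. In whole liver, a change in the number of cells of a type and a change in RNA per cell cannot be told apart.

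Fibril-forming collagens had 11 chains in the table, of which 10 were above 0 and 3 were tested. The 3 tested chains all had lower means in p21TKO livers, with groups that overlapped. Col3a1, the type III chain, was at 2.05, 0.581 and 0.132 FPKM in p21TKO replicates 1 to 3, against 1.54, 1.60 and 1.36 FPKM in DKO replicates 1 to 3. Replicate 1 of p21TKO had the highest Col3a1 of the 6 libraries and replicates 2 and 3 the lowest, and the difference was -0.50 ± 0.35 (SE; limma adjusted p 0.626). The type I chains Col1a1 and Col1a2, which make up most of the collagen in scar, were under the level tested. Col1a1 was at 0.952, 0.325 and 0.152 FPKM in p21TKO livers, against 0.450, 0.729 and 0.370 FPKM in DKO livers. Col1a2 was at 1.08, 0.498 and 0.297 FPKM in p21TKO livers, against 0.667, 0.800 and 0.492 FPKM in DKO livers. The 3 chains of types I and III summed to 4.08, 1.40 and 0.581 FPKM in p21TKO livers, against 2.66, 3.13 and 2.22 FPKM in DKO livers. Their order within p21TKO was the reverse of that of Dcn: replicate 1 was highest for the collagens and lowest for Dcn. Markers of myofibroblasts and vascular smooth muscle summed to 7.08, 6.72 and 2.81 FPKM in p21TKO livers, against 3.98, 4.53 and 4.56 FPKM in DKO livers, and their part in the collagen values was not tested.

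Col27a1 and Col5a3, minor fibrillar chains, divided the libraries in another way. Col27a1 was at 3.16, 0.395 and 0.250 FPKM in p21TKO replicates 1 to 3, against 0.841, 3.47 and 2.75 FPKM in DKO replicates 1 to 3. Col5a3 was at 1.62, 0.307 and 0.141 FPKM in p21TKO livers, against 0.727, 2.65 and 2.29 FPKM in DKO livers. Both were high in the 3 libraries with Y-linked transcripts and low in the 3 without. For Col27a1 the p21TKO minus DKO difference was -0.48 among libraries without these transcripts and 0.02 among those with them. For Col5a3 it was -0.50 and -0.41. Each of these within-set values has a group with 1 library, so they carry no error. The laminin chain Lama3 had the same division, with 130, 10 and 6 reads in p21TKO replicates 1 to 3, against 5, 126 and 171 reads in DKO replicates 1 to 3. Over all tested genes, p21TKO replicate 1 correlated at 0.978 with DKO replicate 2 and 0.950 with DKO replicate 3. With p21TKO replicates 2 and 3 it correlated at 0.878 and 0.860. The share of all genes with this division was not counted, so it is not shown to be particular to these chains. Libraries with Y-linked transcripts were 1 of 3 in p21TKO and 2 of 3 in DKO. The pooled difference was -0.70 for Col27a1 and -0.80 for Col5a3, and with a term for these transcripts it was -0.23 and -0.45.

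**Figure D3:**
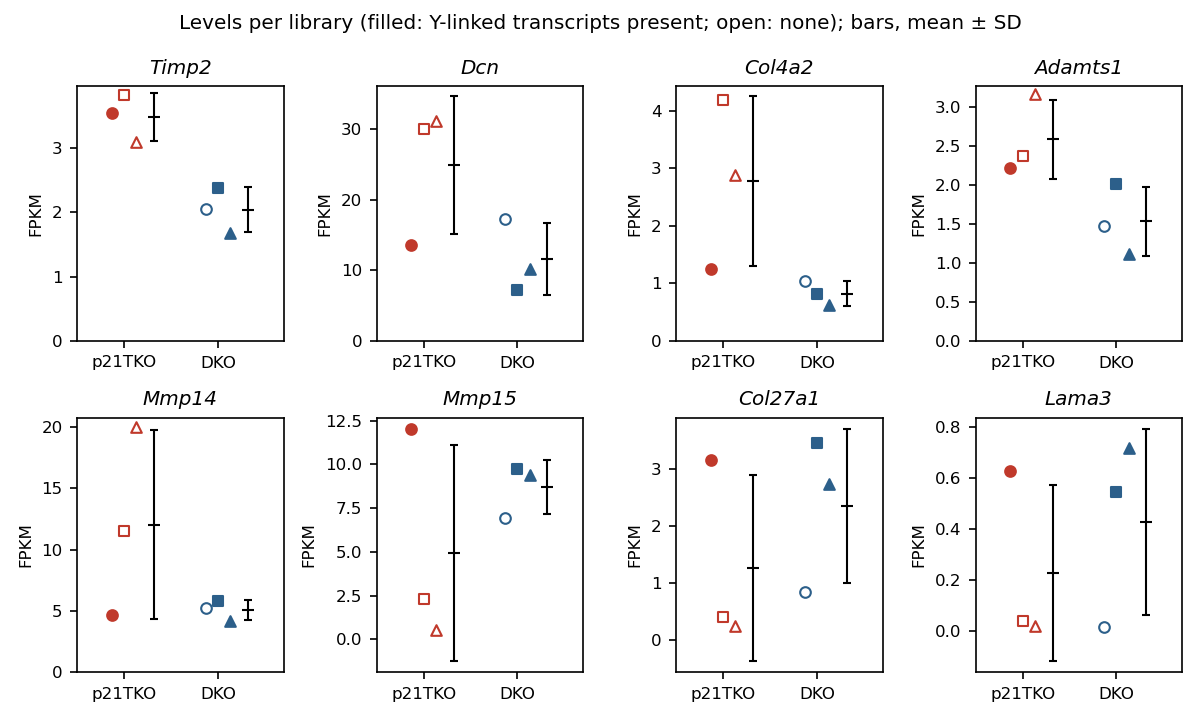
FPKM per library for 8 matrix genes, p21TKO on the left and DKO on the right; circles, squares and triangles are replicates 1, 2 and 3, filled symbols mark libraries with Y-linked transcripts, and bars give the mean ± SD of 3 libraries. Timp2, Col4a2 and Adamts1 have no overlap between groups, while Col27a1 and Lama3 are high in filled and low in open symbols; SD bars that pass below 0 come from groups with 1 library far from the others.

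Type IV collagen is the network-forming collagen of basement membranes, and Col4a1 and Col4a2 encode the chains of its most widespread trimer. Col4a2 (ENSMUSG00000031503) was at 1.26, 4.19 and 2.88 FPKM in p21TKO replicates 1 to 3, against 1.04, 0.814 and 0.619 FPKM in DKO replicates 1 to 3. Every p21TKO library lay above every DKO library, by a narrow gap for p21TKO replicate 1. The difference was 0.98 ± 0.31 (SE), with a 95% interval from 0.24 to 1.71, and it did not pass the threshold (limma adjusted p 0.523). Col4a1 (ENSMUSG00000031502) was at 1.61, 4.68 and 3.37 FPKM in p21TKO livers, against 1.98, 1.17 and 1.12 FPKM in DKO livers, a difference of 0.75 ± 0.31 (SE). Both chains were highest in p21TKO replicate 2 and next highest in replicate 3. The genes stand head to head on mouse chromosome 8, and both windows around their starts are shown because the chains moved together. In RefSeq on GRCm38.p6 each window runs from 250 bases before to 50 bases after the start site, the start sites are 21 bases apart, and the capitals mark the 78 bases that both windows hold, read from opposite strands. The Col4a1 window is chr8:11312777-11313076 on the minus strand and the Col4a2 window is chr8:11312555-11312854 on the plus strand.
Col4a1: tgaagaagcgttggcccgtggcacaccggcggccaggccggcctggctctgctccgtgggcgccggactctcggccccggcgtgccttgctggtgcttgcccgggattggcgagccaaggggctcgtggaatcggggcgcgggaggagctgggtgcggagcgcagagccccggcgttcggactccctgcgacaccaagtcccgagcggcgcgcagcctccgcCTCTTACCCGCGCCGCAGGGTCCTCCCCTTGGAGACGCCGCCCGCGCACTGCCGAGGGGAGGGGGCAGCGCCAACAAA
Col4a2: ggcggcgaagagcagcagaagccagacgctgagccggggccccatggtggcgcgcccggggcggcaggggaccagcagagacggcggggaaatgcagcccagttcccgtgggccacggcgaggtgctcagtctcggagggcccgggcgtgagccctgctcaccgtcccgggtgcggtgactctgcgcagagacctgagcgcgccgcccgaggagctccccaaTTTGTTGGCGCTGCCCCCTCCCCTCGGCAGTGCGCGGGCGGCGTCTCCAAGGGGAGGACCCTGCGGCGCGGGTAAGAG
In the GENCODE M21 annotation the exons of the 2 genes overlap by 22 bases on opposite strands, a small part of either gene's exon length, and no source used here gives the strand setting of the count. The ratio of Col4a1 to Col4a2 was 1.28, 1.12 and 1.17 in p21TKO replicates 1 to 3, against 1.91, 1.44 and 1.80 in DKO replicates 1 to 3. The ratios did not overlap, with means of 1.19 ± 0.085 in p21TKO and 1.72 ± 0.247 in DKO livers (SD, n = 3 each; exact two-sided permutation p 0.1, the smallest that 3 against 3 allows). This was 1 of 8 ratios of related genes set out here, and it was singled out after its values were seen. The other 4 type IV chains were lower, Col4a6 being at 0 throughout, and Col4a5, a chain of a less widespread type IV network, was at 0.223, 0.402 and 0.259 FPKM in p21TKO livers, against 0.180, 0.125 and 0.181 FPKM in DKO livers, with no overlap.

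Liver endothelial markers were set beside the type IV chains, since endothelium is a source of basement membrane. The 16 markers summed to 26.5, 126 and 70.1 FPKM in p21TKO replicates 1 to 3, against 42.1, 30.5 and 27.2 FPKM in DKO replicates 1 to 3, and all 15 tested had a higher mean in p21TKO livers. Of all tested genes, 50.2% had a higher value in p21TKO livers. The marker sum was highest in p21TKO replicates 2 and 3, as for Col4a1 and Col4a2. In p21TKO replicate 1 the 2 differed. There the marker sum was below every DKO library, and Col4a2 was above every DKO library by a narrow gap. The part of these markers in the result was not tested.

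**Figure D4:**
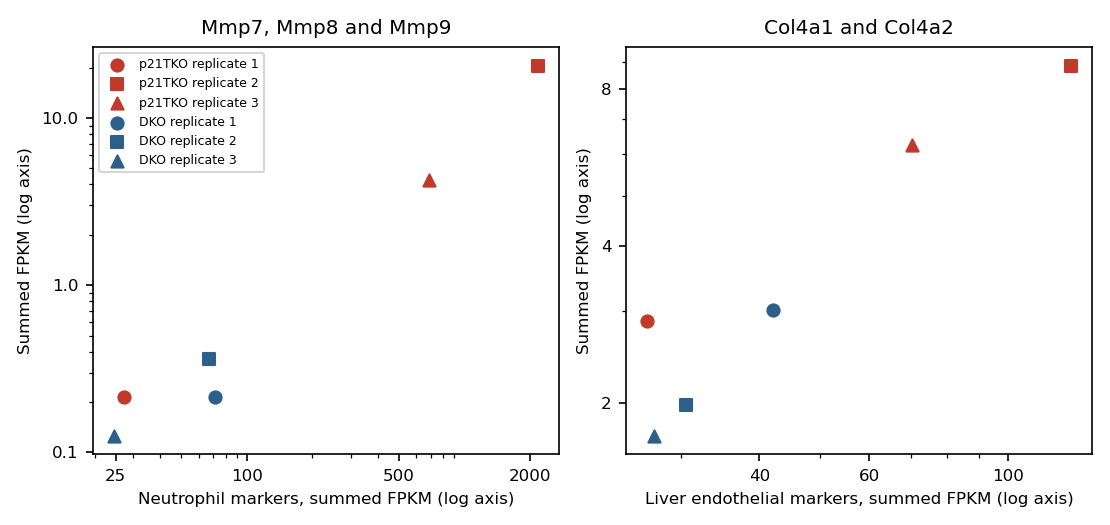
Left, the summed FPKM of Mmp7, Mmp8 and Mmp9 against the summed FPKM of 12 neutrophil markers; right, the summed FPKM of Col4a1 and Col4a2 against that of 16 liver endothelial markers; each point is 1 library and all axes are logarithmic. p21TKO replicates 2 and 3 are at the upper right of both panels. p21TKO replicate 1 lies among the DKO libraries on the left. On the right it has the lowest marker sum and lies beside DKO replicate 1 in height. Lcn2, which hepatocytes also make, gives most of the neutrophil marker sum in p21TKO replicates 2 and 3. Of the genes on the left, Mmp7 is an epithelial enzyme.

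Col18a1 and Col15a1 are the multiplexin collagens of basement membrane zones, and Col18a1 is the precursor of endostatin. Col18a1 was at 94.9, 107 and 88.9 FPKM in p21TKO replicates 1 to 3, against 103, 101 and 102 FPKM in DKO replicates 1 to 3. Its DKO values lay within a narrow range that the p21TKO values surrounded, and the difference was -0.08 ± 0.22 (SE), with a 95% interval from -0.60 to 0.45. Col15a1 was at 0.578, 0.734 and 0.698 FPKM in p21TKO livers, against 1.95, 0.791 and 1.37 FPKM in DKO livers. Its groups did not overlap, although DKO replicate 2 was close to the p21TKO values, and the difference was -0.48 ± 0.21 (SE; limma adjusted p 0.528). Within the multiplexins, Col15a1 had a lower value in p21TKO livers by both group mean and every library, and Col18a1 did not separate the groups.

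Laminins are trimers of an alpha, a beta and a gamma chain. All 11 chains were above 0 in at least 1 library, and Lamc1, the most widespread gamma chain, was the single one with a mean of at least 1 FPKM. Lamc1 was at 1.67, 1.82 and 1.80 FPKM in p21TKO replicates 1 to 3, against 1.54, 1.31 and 1.34 FPKM in DKO replicates 1 to 3. The groups did not overlap, but the difference was small, at 0.21 ± 0.13 (SE; limma adjusted p 0.603). Among chains under the tested level, Lamb2 was at 0.365, 0.788 and 0.450 FPKM in p21TKO livers, against 0.267, 0.306 and 0.274 FPKM in DKO livers, with no overlap. Lama5, an alpha chain of many epithelial and vascular basement membranes, had 38, 129 and 122 reads in p21TKO livers, against 41, 24 and 29 reads in DKO livers. As FPKM, which allow for library size, these were 0.172, 0.493 and 0.396 in p21TKO livers, against 0.150, 0.0979 and 0.115 in DKO livers. Lamb3, a beta chain of the laminin of epithelial attachment sites, went the other way, at 0.281, 0.257 and 0.224 FPKM in p21TKO livers, against 0.510, 0.513 and 0.558 FPKM in DKO livers. Lamb3 rested on 36 to 40 reads per p21TKO library and 73 to 82 per DKO library, and its replicates lay close together in both groups. With the minimum mean lowered to 0.1 FPKM, the adjusted p of Lamb3 was 0.537 and that of Lama5 was 0.538 (limma).

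Col6a1, a chain of the beaded filaments of type VI collagen, and Col14a1, which coats fibril surfaces, both overlapped between groups. Col6a1 was at 1.67, 1.23 and 0.801 FPKM in p21TKO livers, against 1.39, 1.39 and 1.07 FPKM in DKO livers, a difference of -0.04 ± 0.19 (SE) whose sign turned with a term for Y-linked transcripts. Col14a1 was at 5.54, 2.62 and 0.891 FPKM in p21TKO livers, against 5.57, 3.57 and 3.00 FPKM in DKO livers. Its order within p21TKO was that of Col3a1. Col13a1, a transmembrane collagen of cell attachment sites, was at 0.0785, 3.45 and 2.40 FPKM in p21TKO replicates 1 to 3, against 0.244, 0.141 and 0.225 FPKM in DKO replicates 1 to 3. Replicates 2 and 3 of p21TKO were far above all DKO libraries and replicate 1 was below them, which left a difference of 1.08 ± 0.50 (SE; limma adjusted p 0.535).

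The membrane-type metalloproteinases act at the cell surface, and Mmp14 and Mmp15 were the highest of them here. Mmp14, an activator of pro-Mmp2 and a collagenase of pericellular matrix, was at 4.64, 11.5 and 20.0 FPKM in p21TKO replicates 1 to 3, against 5.22, 5.79 and 4.18 FPKM in DKO replicates 1 to 3. Mmp15 was at 12.0, 2.28 and 0.548 FPKM in p21TKO livers, against 6.96, 9.74 and 9.41 FPKM in DKO livers. The 2 genes ran in opposite order within p21TKO, Mmp14 being highest and Mmp15 lowest in replicate 3. Their ratio, Mmp14 to Mmp15, was accordingly 0.386, 5.05 and 36.5 in p21TKO livers, against 0.750, 0.594 and 0.444 in DKO livers. Over the 3 libraries per group, the differences were 0.92 ± 0.46 (SE; limma adjusted p 0.544) for Mmp14 and -1.25 ± 0.71 (SE; limma adjusted p 0.580) for Mmp15. Among libraries without Y-linked transcripts the differences were 1.38 for Mmp14 and -1.82 for Mmp15. Among those with them the differences were -0.07 and 0.30. The signs differed between the 2 sets, but each of these values has a group with 1 library and carries no error. The p21TKO library with these transcripts is replicate 1, whose Mmp14 lay within the DKO range. Mmp2, the gelatinase that Mmp14 activates, had 31, 52 and 57 reads in p21TKO livers, against 28, 25 and 37 reads in DKO livers, and was under the tested level.

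The secreted metalloproteinases Mmp7, Mmp8 and Mmp9 were each at most 0.341 FPKM in p21TKO replicate 1 and in the 3 DKO libraries. Mmp7 (matrilysin, an epithelial enzyme, with 11.5% of its exon bases shared with AV064505 on the opposite strand) had 1, 149 and 58 reads in p21TKO replicates 1 to 3, against 0, 0 and 0 reads in DKO replicates 1 to 3. Against the FPKM that 3 reads per DKO library would have given, its p21TKO mean was at least 21.8-fold higher, a bound that covers counting error only. Replicate 2 carried much of that mean, and without it the bound was at least 8.25-fold. The single read in p21TKO replicate 1 is what keeps the Mmp7 groups from overlapping. Mmp8, the neutrophil collagenase, had 1, 517 and 75 reads in p21TKO livers, against 5, 1 and 2 reads in DKO livers. Mmp9, a gelatinase stored in neutrophil granules and made by macrophages, had 10, 424 and 108 reads in p21TKO livers, against 11, 26 and 7 reads in DKO livers. All 3 were highest in p21TKO replicate 2 and next in replicate 3. Together they summed to 0.216, 20.6 and 4.28 FPKM in p21TKO livers, against 0.215, 0.361 and 0.126 FPKM in DKO livers. The limma adjusted p-values were 0.523 for Mmp7 and 0.568 for both Mmp8 and Mmp9.

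Neutrophil markers moved in the same libraries. The 12 markers, all detected, summed to 27.2, 2185 and 688 FPKM in p21TKO replicates 1 to 3, against 71.1, 66.8 and 24.6 FPKM in DKO replicates 1 to 3. The 6 that were tested all had a higher mean in p21TKO livers, with a median difference of 2.58 on the log2 scale. Lcn2, which hepatocytes also make, gave most of the sum in p21TKO replicates 2 and 3. S100a8, a calcium-binding protein of neutrophils, was at 8.04, 182 and 77.5 FPKM in p21TKO livers, against 1.56, 8.10 and 3.96 FPKM in DKO livers, again high in replicates 2 and 3 of p21TKO. Markers of Kupffer cells and macrophages summed to 50.7, 443 and 234 FPKM in p21TKO livers, against 150, 103 and 72.0 FPKM in DKO livers. Their part in the Mmp8 and Mmp9 values was not tested. Mmp25, a membrane-type enzyme of leukocytes, had 0, 37 and 12 reads in p21TKO livers, against 2, 3 and 0 reads in DKO livers, the same order of libraries. Biliary markers were set beside Mmp7, an epithelial enzyme. They summed to 20.0, 27.7 and 7.11 FPKM in p21TKO livers, against 7.24, 18.7 and 7.07 FPKM in DKO livers. Spp1, the only 1 of the 8 markers that was tested, gave most of this sum in every library. The sum therefore describes mainly Spp1. Unlike Mmp7, this sum was lower in p21TKO replicate 3 than in replicate 1, and its part was not tested.

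Mmp7 and Mmp8 lie in a cluster of 10 Mmp genes on chromosome 9, which runs from 7272514 to 7699585 (427 kb) in GENCODE M21 on GRCm38. Mmp13, Mmp1b, Mmp1a, Mmp10 and Mmp20 in this cluster had 0 reads in all 6 libraries. Mmp12, the macrophage elastase, had 1, 16 and 2 reads in p21TKO livers, against 0, 0 and 2 reads in DKO livers. Mmp3 (stromelysin) had 1, 7 and 9 reads in p21TKO livers, against 0, 0 and 3 reads in DKO livers. Reads in the cluster were thus concentrated in Mmp8 and Mmp7, which are not neighbours, and Mmp27 and Mmp20 between them had few or none. The windows around the starts of Mmp7 and Mmp8, from RefSeq on GRCm38.p6, are shown because these 2 genes carried the reads of the cluster. They are chr9:7691840-7692139 on the plus strand for Mmp7 and chr9:7558179-7558478 on the plus strand for Mmp8, and capitals mark matches to the AP-1 letters TGANTCA and to the TATA box letters TATAAA, searched on both strands.
Mmp7: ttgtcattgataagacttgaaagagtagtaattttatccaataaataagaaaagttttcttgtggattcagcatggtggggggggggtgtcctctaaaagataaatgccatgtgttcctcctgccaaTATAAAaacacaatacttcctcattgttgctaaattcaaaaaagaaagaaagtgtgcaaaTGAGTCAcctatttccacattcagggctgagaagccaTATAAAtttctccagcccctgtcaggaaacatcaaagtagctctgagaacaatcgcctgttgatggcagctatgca
Mmp8: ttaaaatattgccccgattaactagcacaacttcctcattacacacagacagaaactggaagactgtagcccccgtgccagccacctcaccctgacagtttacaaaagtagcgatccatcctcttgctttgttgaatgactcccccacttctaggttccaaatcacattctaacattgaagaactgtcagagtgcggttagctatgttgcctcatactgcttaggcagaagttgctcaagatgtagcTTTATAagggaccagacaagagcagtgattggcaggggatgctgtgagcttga
The Mmp7 window held 1 AP-1 match and 2 TATAAA matches, and the Mmp8 window held 1 TATA match, read on the opposite strand, and no AP-1 match. TGANTCA was found in 11.1% of the 81 windows of matrix genes and in 7.81% of all 32851 windows, and TATAAA in 19.8% and 13.6%. Other letters were searched too. In the same order, GGGCGG was in 55.6% and 35.7%, CCAAT in 29.6% and 37.4%, and TTGCNNAA in 11.1% and 10.8%. The Mmp7 and Mmp8 windows also held matches to CCAAT and TTGCNNAA. The windows of matrix genes came from 74 of the 106 genes. These matches are descriptions of letters, not of bound sites.

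**Figure D5:**
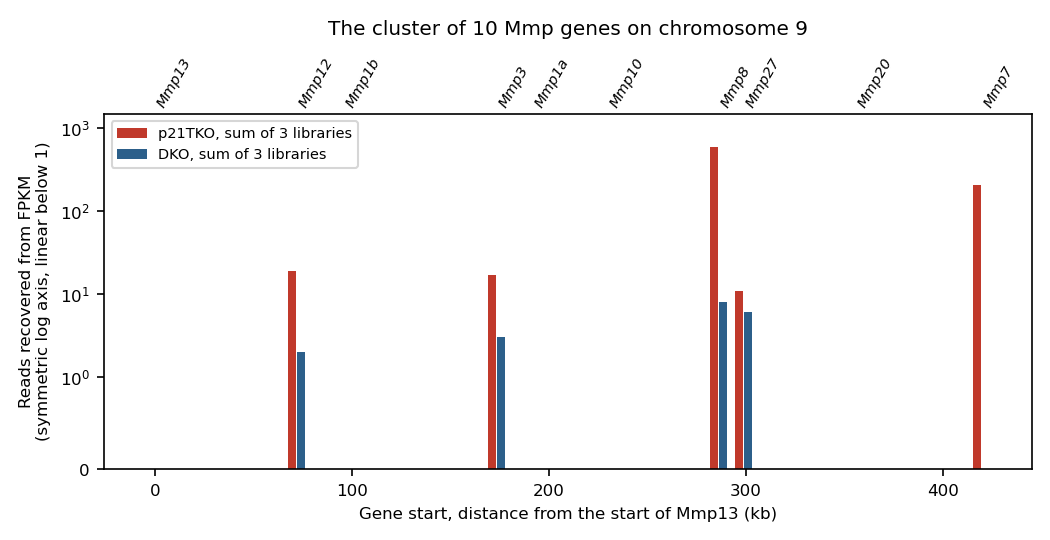
Reads recovered from FPKM for the 10 Mmp genes of the chromosome 9 cluster, summed over the 3 p21TKO libraries (red, left bar) and the 3 DKO libraries (blue, right bar), against the distance of each gene's start from that of Mmp13 in kb; the y axis is logarithmic above 1. Mmp8 and Mmp7 carry most reads, Mmp7 has no DKO bar, and Mmp13, Mmp1b, Mmp1a, Mmp10 and Mmp20 have no bar in either group. Most of these reads are from p21TKO replicate 2, with 517 for Mmp8 and 149 for Mmp7, while p21TKO replicate 1 has 1 of each. Reads are not scaled for library size.

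Mmp19, a secreted enzyme of broad specificity, was among the highest Mmp genes and did not separate the groups. It was at 4.02, 9.38 and 4.75 FPKM in p21TKO livers, against 10.6, 3.38 and 10.5 FPKM in DKO livers, and 22.3% of its exon bases are shared with Tmem198b on the opposite strand, so reads of the 2 genes may be mixed.

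The 4 inhibitors summed to 4.48, 5.92 and 5.61 FPKM in p21TKO replicates 1 to 3, against 2.86, 2.72 and 2.37 FPKM in DKO replicates 1 to 3. Every p21TKO library was above every DKO library in this sum. Timp2 (ENSMUSG00000017466, chromosome 11), an inhibitor that also takes part in the activation of pro-Mmp2 by Mmp14, gave most of it. Timp2 was at 3.55, 3.82 and 3.09 FPKM in p21TKO livers, against 2.05, 2.39 and 1.69 FPKM in DKO livers. The groups did not overlap, and replicates lay close together within each. The difference was 0.57 ± 0.15 (SE), with a 95% interval from 0.20 to 0.93, and it had the smallest p of the 25 tested matrix genes, yet it missed the adjusted threshold (limma adjusted p 0.515). It was 0.54 among libraries without Y-linked transcripts and 0.59 among those with them, values that each have a group with 1 library and carry no error. The higher Timp2 level was present in p21TKO replicate 1 as well as in replicates 2 and 3. Timp1, an inhibitor induced in injured liver, had 10, 13 and 5 reads in p21TKO livers, against 2, 0 and 0 reads in DKO livers. Its groups did not overlap, and with the minimum mean lowered to 0.1 FPKM its limma adjusted p was 0.491, the lowest of the 55 matrix genes then tested, none of which passed (0.052% of all genes passed). With no filter, 0.00415% of all genes passed and no matrix gene did. Timp3, which binds to the matrix itself, was at 0.336, 1.40 and 2.18 FPKM in p21TKO livers, against 0.710, 0.314 and 0.680 FPKM in DKO livers, and 21.3% of its exon bases are shared with Syn3 on the opposite strand. Timp4 had 1, 8 and 21 reads in p21TKO livers, against 0, 2 and 0 reads in DKO livers. The ratio of Mmp14 to Timp2 was 1.31, 3.01 and 6.46 in p21TKO livers, against 2.54, 2.43 and 2.48 in DKO livers, so p21TKO libraries lay on both sides of a narrow DKO range.

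Of the 19 Adamts genes, 17 were above 0 and 2 were tested. Adamts1, a protease of versican and other large proteoglycans, was at 2.22, 2.37 and 3.16 FPKM in p21TKO replicates 1 to 3, against 1.47, 2.01 and 1.12 FPKM in DKO replicates 1 to 3. Adamts7 was at 1.05, 1.39 and 0.824 FPKM in p21TKO livers, against 1.48, 1.75 and 1.59 FPKM in DKO livers. Neither overlapped between groups, Adamts1 being higher in p21TKO livers by 0.51 ± 0.19 and Adamts7 lower, at -0.33 ± 0.16 (SE; limma adjusted p 0.523 for Adamts1 and 0.542 for Adamts7). Adamts4, an aggrecanase, had 0, 50 and 45 reads in p21TKO livers, against 2, 0 and 5 reads in DKO livers. Adamts4 therefore followed p21TKO replicates 2 and 3, in contrast to Adamts1, which was higher in all 3.

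Counted over libraries, 7 of the 25 tested matrix genes had groups that did not overlap, 5 higher (Timp2, Col4a2, Adamts1, Lamc1 and Mmp7) and 2 lower in p21TKO livers (Adamts7 and Col15a1). Among all tested genes 15.4% did not overlap, 6.93% higher and 8.49% lower. Col4a2 and Mmp7, with a DKO mean under 1 FPKM, reached the test through the p21TKO group. Col15a1, with a p21TKO mean under 1 FPKM, reached it through the DKO group. With the minimum mean at 0.1 FPKM, 10 of 55 matrix genes were higher without overlap and 3 were lower, where 7.08% and 8.26% of 15372 genes were. A second pattern was that p21TKO replicates 2 and 3 both lay beyond every DKO library while replicate 1 did not. It held for 6 of the 25 on the high side (Col4a1, Col13a1, Dcn, Mmp14, Mmp8 and Mmp9) and for 5 on the low side (Col3a1, Col5a3, Col14a1, Col27a1 and Mmp15), where 13.2% and 15.9% of all tested genes had it. This pattern was looked for after the values were seen. In it, Col13a1, Mmp8, Mmp9, Col3a1 and Col5a3 also reached the test through the group in which they were high. The counts of both patterns are therefore descriptions only.

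Results for several genes turned on p21TKO replicate 1. Without that library, 495 of 9538 genes passed the adjusted threshold (5.19%), 225 higher (2.36%) and 270 lower (2.83%), and 5 of the 25 matrix genes were among them. Higher in the 2 remaining p21TKO libraries were Mmp7 by 2.21 (limma adjusted p 0.0261), Col13a1 by 1.69 (limma adjusted p 0.0100), Mmp14 by 1.43 (limma adjusted p 0.0397) and Col4a2 by 1.31 (limma adjusted p 0.0234). Mmp15 was lower, with a difference of -2.09 (limma adjusted p 0.0271). Mmp7, Col13a1 and Col4a2 had a DKO mean under 1 FPKM and reached the test through the p21TKO libraries. The library left out was also the one seen to lie apart from the other p21TKO libraries. These adjusted p-values are therefore descriptions only. The 2 libraries left in p21TKO both lack Y-linked transcripts while 2 of the 3 DKO libraries have them, so in this fit genotype and Y-linked transcripts are more unevenly spread than in the full one.

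Other genes of matrix biology were described as lists beside the 106. None of their tested members passed the adjusted threshold in either direction. Genes that fold, cross-link and trim collagen numbered 25, and of the 11 tested 9 had higher and 2 lower values in p21TKO livers, with a median difference of 0.25. P3h1, a collagen prolyl hydroxylase, averaged 4.43 ± 0.0656 FPKM in p21TKO and 2.92 ± 0.795 FPKM in DKO livers (SD, n = 3 each). P4ha1, a catalytic subunit of prolyl 4-hydroxylase, was at 7.82, 2.92 and 2.24 FPKM in p21TKO replicates 1 to 3, against 1.67, 2.64 and 1.37 FPKM in DKO replicates 1 to 3. Replicate 1 of p21TKO carried this difference, which was 0.76 with it and 0.32 without it. Of 8 tested genes of other basement membrane and elastic fibre components, 6 had higher and 2 lower values, with a median of 0.39. In that list Smoc2, a calcium-binding matricellular protein, averaged 2.47 ± 1.33 FPKM in p21TKO and 0.728 ± 0.231 FPKM in DKO livers. Agrin (Agrn), a heparan sulphate proteoglycan, averaged 1.91 ± 0.705 FPKM in p21TKO and 2.96 ± 0.334 FPKM in DKO livers, a difference of -0.47 that was -0.25 without p21TKO replicate 3. Basement membrane genes thus held examples in both directions, as the collagens did.

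Matricellular genes and other proteoglycans had 8 tested members, 7 with higher and 1 with a lower value, and a median of 0.40. Ecm1, a secreted matrix glycoprotein and a stellate cell marker here, averaged 37.7 ± 2.72 FPKM in p21TKO and 20.2 ± 5.10 FPKM in DKO livers, and Mgp, an inhibitor of calcification, averaged 1.89 ± 0.581 FPKM in p21TKO and 0.929 ± 0.265 FPKM in DKO livers. Among 14 tested matrix receptors, 8 had higher and 6 lower values, with a median of 0.037. The laminin receptor Bcam averaged 2.65 ± 1.11 FPKM in p21TKO and 0.974 ± 0.267 FPKM in DKO livers, and the integrin chain Itgb3 averaged 2.84 ± 2.03 FPKM in p21TKO and 0.359 ± 0.206 FPKM in DKO livers. Neither passed the threshold, and Itgb3 in p21TKO replicate 1, at 0.578 FPKM, lay within the DKO range. Both had been picked for the smallest p of their list.

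TGF-beta signalling, the best known inducer of collagen genes in stellate cells, had 13 tested genes, 10 with higher and 3 with lower values in p21TKO livers and a median of 0.20. Smad3, its signal transducer, averaged 1.75 ± 0.587 FPKM in p21TKO and 3.16 ± 1.08 FPKM in DKO livers, and Skil, a repressor of Smad-driven transcription, averaged 2.37 ± 0.530 FPKM in p21TKO and 1.44 ± 0.340 FPKM in DKO livers. The Smad3 groups overlapped, p21TKO replicate 1 at 2.42 FPKM being above DKO replicate 1 at 2.16 FPKM. Smad3 and Skil had also been picked for the smallest p of their list. Of the plasmin system and other matrix proteases, 10 genes were tested, 6 with higher and 4 with lower values and a median of 0.063. The lysosomal protease Ctsl was at 63.6, 232 and 306 FPKM in p21TKO replicates 1 to 3, against 75.1, 59.8 and 77.9 FPKM in DKO replicates 1 to 3. Replicate 1 of p21TKO lay within the DKO range. The difference was 1.22, and it was 1.90 without p21TKO replicate 1 (limma adjusted p 0.0208) and 0.78 without p21TKO replicate 3. That adjusted p is a description only, since the library left out was the one seen to lie apart. In the same fit 495 genes passed (5.19%), and Itgb3, Smoc2 and Nid1 of the lists above were among them.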

How the data were processed

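PolyA RNA of mouse liver was sequenced in 6 libraries, and the authors deposited a single table of FPKM per gene and library. Per the labels' protocols, RNA was extracted with TRIzol, and the library kit was NEBNext Ultra. The submitters' processing notes list CASAVA 1.8 and fastp, the aligner HISAT2 2.0.5, the counter featureCounts 1.5.0-p3, and DESeq2 1.20.0. They name human builds for a table of mouse identifiers, which leaves the build of the FPKM unknown. Positions come from GENCODE M21 on GRCm38 through the identifier, found for 55480 of 55573 genes. Reads were recovered from FPKM and union exon lengths, and 99.3% of values per library came out whole within 0.02 (99.5% of genes).

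The 9538 genes with a mean of at least 1 FPKM were tested on log2(FPKM + 1) in limma 3.58.1 under R 4.3.3, with a variance trend, both sides and Benjamini-Hochberg adjustment over all of them. Ratios had an exact permutation test (scipy 1.17.1). No set test was run, and the limma code was tested on simulated data. The 106 genes and all lists were chosen with earlier results of these data known. Named by rule were members passing the threshold, the 6 lowest p-values per direction, the 10 highest, the highest of each role group, the Timp genes, Dcn, Bgn, Lum, Fn1, Sparc, the type I, III and IV chains of the main trimers, and up to 2 genes per other list with the smallest p; a gene that this rule takes is not reported here. Other members and all ratios were picked after their values were seen. Alternatives were the pseudocount, the filter, scaling, limma voom on recovered reads, a replicate block, a term for Y-linked transcripts and leaving out each library. Promoter windows are those of RefSeq.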

Additional observations from a re-analysis of the deposited data

How the results depend on the processing

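For the 23 tested members compared by sign and call, 288 of 299 comparisons with an alternative kept direction and side of the threshold, 6 reversed and 5 passed the threshold, all 5 without p21TKO replicate 1. With a term for Y-linked transcripts the difference was 0.0076 for Col6a1 and -0.18 for Fn1, both of the opposite sign. Leaving out each library gave -0.18 to 0.10 for Col6a1 and -0.16 to 0.46 for Fn1. Genes passing the adjusted threshold numbered 7, against 1 with no filter, 1 with limma voom and 0 with the replicate block; leaving out each library gave 1 to 495 (495 without p21TKO replicate 1, 4 without DKO replicate 1, 1 without DKO replicate 3, 2 and 3 without p21TKO replicates 2 and 3). Matrix genes passing ranged from 0 to 5. Matrix genes without overlap numbered 7 of 25, against 17 of 92 with no filter (18.5%, where 12.2% of all genes had none) and 13 of 55 at a mean of at least 0.1 FPKM (23.6%, where 15.3% of all genes had none). Leaving out each library gave 7 to 18 of 25, where 19.8% to 44.6% of all genes had no overlap; it was 12 without DKO replicate 1 (19.8% of all genes) and 18 without p21TKO replicate 1 (44.6%). Fewer libraries make it more frequent. The median difference over the matrix genes was 0.0074 with no filter and 0.15 to 0.37 when each library was left out. Overlap is not defined for the block, voom and the Y-linked term.

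The replicate numbers did not pair the libraries: deviations of same-numbered libraries correlated at -0.439, -0.487 and -0.072, so the replicate block is an alternative only, with 0 matrix genes passing. Members under 1 FPKM rest on few reads, and a gene at 0 reads could hold up to 3. Whole-liver values from 3 libraries per group, 1 of them unlike the other 2 in p21TKO, limit what could be detected.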
